A study of Mus musculus with 48 samples.

Results

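The 10 genes described here encode enzymes of branched-chain amino acid catabolism and the kinase that restrains it: Bcat2, Bckdha, Bckdhb, Dbt, Bckdk, Acadsb, Ivd, Mccc1, Mccc2 and Hibch. They were taken by name from a liver expression table of 22180 genes, a gene being represented by the brightest, on average, of its probe sets that carry 1 gene symbol. Each of the 10 had 1 such probe set, and all 10 passed the filter on low values that left 16926 genes for testing, with mean levels between the 73.7th percentile (Bcat2) and the 97.2nd percentile (Dbt) of all genes. Liver RNA of 48 mice had been measured on Affymetrix arrays, 1 array per mouse. From 3 weeks of age the mice ate freely of a diet set by its energy density (high, medium or low) and by its composition, written as percent of energy from protein/carbohydrate/fat, and the livers were collected at 15 months. There were 10 mice on 5% protein, 9 mice on 14%, 9 mice on 23%, 9 mice on 33%, 5 mice on 42% and 6 mice on 60%. By energy density there were 5 low, 14 medium and 29 high energy mice, and the mice filled 20 combinations of 1 to 4 animals each. No mouse on 5% protein was given a medium or low energy diet. The mice were of both sexes and 1 was taken per cage, but neither the sex of each mouse nor the strain was given in the labels. The defining markers of liver were present: the mean of 6 hepatocyte genes, albumin (Alb) among them, lay between 11.47 and 12.52 on the log2 scale on every array.

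Leucine, isoleucine and valine are broken down in mitochondria. An aminotransferase, encoded by Bcat2 in most tissues outside the brain, turns them into branched-chain keto acids, and the branched-chain keto acid dehydrogenase complex then commits those acids to oxidation. The kinase encoded by Bckdk phosphorylates the complex and shuts it down. The liver is known for high activity of the dehydrogenase and low activity of the aminotransferase, so that much of its substrate arrives as keto acids from muscle.

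Genes of the dehydrogenase and of the steps after it were higher on diets with more protein, while the genes of its alpha subunit, the kinase and the aminotransferase were not called. The protein slope is the log2 difference that went with 10 more points of dietary energy as protein in place of an equal mix of carbohydrate and fat. It was fitted with limma to all 48 mice with the carbohydrate-fat exchange and energy density in the model, and adjusted p-values cover all 16926 genes. By this test 7 of the 10 genes rose with protein and none fell. The background of upward calls was 3.37% of the genes tested. The median slope of the 10 genes was 0.12, against -0.0019 over all genes tested.

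**Figure D1:**
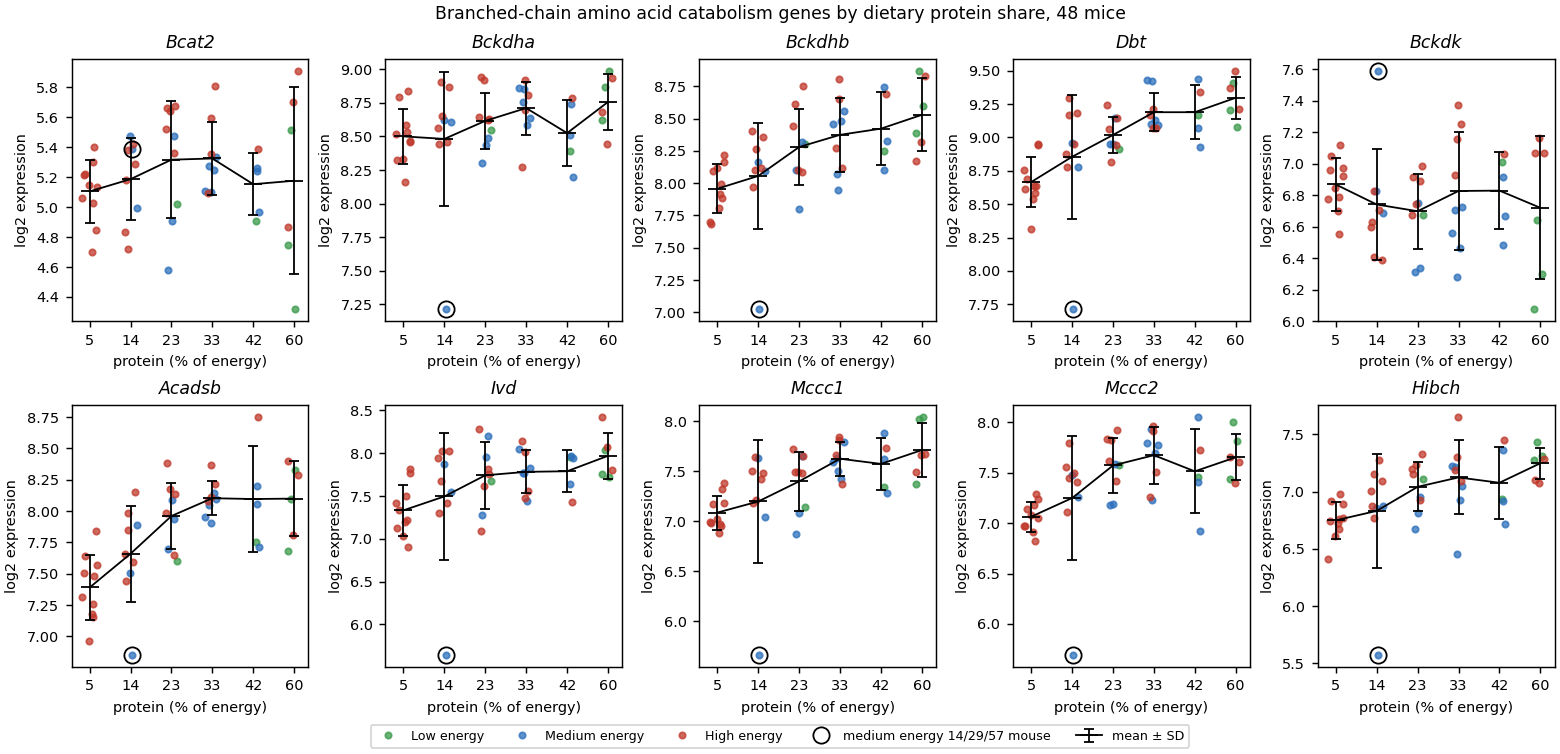
Log2 expression of the 10 genes (1 panel each) against the share of dietary energy from protein in percent. Each point is 1 mouse, coloured by energy density, lines join group means and bars show the SD (n = 10, 9, 9, 9, 5 and 6 mice from 5% to 60%). The ringed medium energy 14/29/57 mouse is the lowest of all 48 for 8 genes and the highest for Bckdk.

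The aminotransferase gene Bcat2 varied more within protein shares than between them. Its values had a lowest, median and highest of 4.70, 5.14 and 5.40 at 5% protein, 4.58, 5.48 and 5.67 at 23% and 4.32, 5.19 and 5.91 at 60% protein. The ranges overlapped throughout, and the spread was largest at 60% (SD 0.62, n = 6). Its protein slope was 0.06 ± 0.03 (SE), which limma did not call (adjusted p = 0.174). Without mouse 125 (high energy 60/20/20) it was 0.09 and called (limma adjusted p = 0.0435).

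Within the dehydrogenase complex the subunit genes differed in size of slope. Dbt encodes the transacylase core on which the complex is built. Its lowest, median and highest values were 8.31, 8.64 and 8.95 in the 10 mice on 5% protein, 7.71, 8.95 and 9.29 at 14%, 8.82, 8.95 and 9.24 at 23%, 9.07, 9.13 and 9.43 at 33%, 8.93, 9.17 and 9.43 at 42% and 9.08, 9.29 and 9.50 at 60%. The groups at 5% and 60% did not overlap, and the 5% group also lay wholly below the 33% group. The Dbt slope was 0.14 ± 0.02 (SE, limma adjusted p = 0.000598), which extended over the 55 points between 5% and 60% protein is 1.69-fold.

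Bckdhb, the gene of the beta subunit of the decarboxylase, had a lowest, median and highest value of 7.69, 7.96 and 8.22 at 5% protein, 7.80, 8.31 and 8.76 at 23% and 8.18, 8.49 and 8.87 at 60%. Its slope was 0.12 ± 0.03 (SE, limma adjusted p = 0.00654), or 1.60-fold over the 55 points. Bckdha encodes the alpha subunit, which carries the sites that the kinase phosphorylates. Its values were 8.16, 8.49 and 8.84 at 5% protein, 8.30, 8.62 and 8.95 at 23% and 8.44, 8.78 and 8.99 at 60%, with wide overlap between all shares. The Bckdha slope of 0.06 ± 0.03 (SE) was not called (limma adjusted p = 0.150).

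The kinase gene Bckdk showed no ordered change over the 6 protein shares. Its mean was 6.87 ± 0.17 at 5% protein, 6.74 ± 0.35 at 14%, 6.70 ± 0.24 at 23%, 6.83 ± 0.37 at 33%, 6.83 ± 0.25 at 42% and 6.72 ± 0.45 at 60% (SD, n = 10, 9, 9, 9, 5 and 6). No neighbouring means in this series differed by more than the larger of their SDs. The protein slope was 0.03 ± 0.03 (SE, limma adjusted p = 0.549), with a 95% interval of -0.03 to 0.08. In the high energy diets alone it was 0.07 ± 0.03 (SE), also not called (limma adjusted p = 0.101).

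All 5 genes of later steps rose. Acadsb encodes the short/branched-chain acyl-CoA dehydrogenase of isoleucine breakdown and had the steepest slope of the 10 genes. Its lowest, median and highest values were 6.96, 7.40 and 7.84 at 5% protein, 6.85, 7.66 and 8.15 at 14%, 7.60, 7.98 and 8.38 at 23%, 7.91, 8.10 and 8.37 at 33%, 7.72, 8.06 and 8.75 at 42% and 7.68, 8.19 and 8.40 at 60%. The 5% group lay wholly below the 33% group but overlapped the 60% group. The Acadsb slope was 0.18 ± 0.03 (SE, limma adjusted p = 0.00021), or 1.96-fold over the 55 points.

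The 3 leucine genes followed. Ivd encodes isovaleryl-CoA dehydrogenase and had means of 7.33 ± 0.30 at 5% and 7.97 ± 0.27 at 60% protein (SD), with a slope of 0.13 ± 0.04 (SE, limma adjusted p = 0.0366). The Ivd call was lost without mouse 125 (high energy 60/20/20, limma adjusted p = 0.0581), without mouse 128 or 426 (5/75/20, 0.0538 and 0.0517) and without mouse 135 or 435 (5/48/48, 0.0545 and 0.0546). Mccc1, the biotin-carrying alpha subunit of methylcrotonyl-CoA carboxylase, ran from 6.88 to 7.38 at 5% and from 7.37 to 8.05 at 60%. Its slope was 0.15 ± 0.03 (SE, limma adjusted p = 0.00378). Mccc2, the beta subunit of the same carboxylase, ran from 6.82 to 7.29 at 5% and from 7.40 to 8.01 at 60%, with no overlap, and its slope was 0.12 ± 0.04 (SE, limma adjusted p = 0.0304). The Mccc2 call was lost without mouse 435 (limma adjusted p = 0.0507) or mouse 440 of high energy 42/29/29 (0.0514). Hibch, a hydrolase of valine breakdown, ran from 6.41 to 6.98 at 5% and from 7.08 to 7.43 at 60%, again with no overlap. The Hibch slope was 0.11 ± 0.03 (SE, limma adjusted p = 0.012).

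Several measures of the tissue and of the arrays moved along with protein. The mean level of 5 macrophage markers was 6.46 at 5% and 5.86 at 60% protein. That of 6 stellate cell markers was 6.15 at 5% and 5.33 at 60%. The mean of 6 hepatocyte markers was 12.22 at 5% and 12.41 at 60%, but only part of that list differed clearly. Cps1 went from 11.44 to 12.30 and Tat from 11.92 to 12.18. Ttr (12.82 and 12.85) and Cyp2e1 (12.70 and 12.73) differed little. Alb (12.91 and 12.90) and Apoa1 (11.55 and 11.50) were slightly lower at 60%. The macrophage list ranged from 5.17 to 7.21 at 5% and from 5.10 to 6.52 at 60%, and the stellate list from 5.61 to 7.26 at 5% and from 4.94 to 5.82 at 60%. In whole liver, fewer cells of a type and less RNA per cell cannot be told apart, and the part of these markers in the slopes was not tested. The interquartile range of all values on an array was 3.48 ± 0.13 at 5% and 3.16 ± 0.20 at 60% protein (SD). Across the 48 arrays it correlated with Acadsb at r = -0.69, with Bckdhb at -0.56, with Dbt at -0.47, with Ivd at -0.08 and with Bckdk at 0.09, values that share the diets and are given as a description. With the interquartile range as a term, limma called 2 of the 10 genes upward, Dbt (0.12 ± 0.03, SE, adjusted p = 0.015) and Acadsb (0.12 ± 0.03, SE, adjusted p = 0.00826), against a background of 0.449%. The slopes of all 10 genes stayed positive in that fit, from 0.02 for Bckdha to 0.15 for Ivd.

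**Figure D2:**
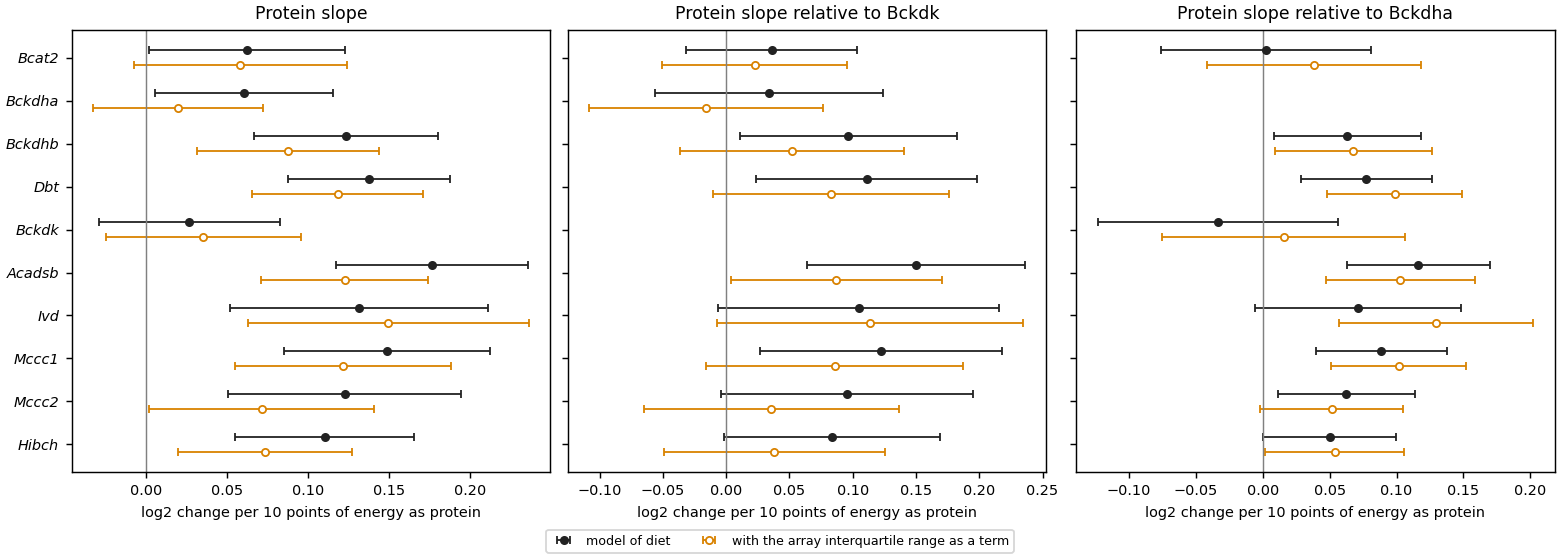
Protein slope of each gene (left), its slope after subtracting Bckdk on the same array (middle) and after subtracting Bckdha (right), in log2 units for 10 points of energy as protein. Points are limma estimates with 95% intervals from 48 mice, filled for the model of diet and open with the interquartile range of each array added. Filled points lie right of 0 in every row but Bckdk minus Bckdha.

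A single mouse stood apart in nearly all these genes. The medium energy 14/29/57 mouse, the only one of its combination, had 7.21 for Bckdha, against 8.16 to 8.99 in the other 47 mice. It had 7.02 for Bckdhb (others 7.69 to 8.87), 7.71 for Dbt (others 8.31 to 9.50), 5.65 for Ivd (others 6.91 to 8.43), 5.66 for Mccc1 (others 6.87 to 8.05), 5.69 for Mccc2 (others 6.82 to 8.06) and 5.57 for Hibch (others 6.41 to 7.65). Its Bckdk level was 7.59, above the 6.08 to 7.37 of the others, and its Bcat2 level ranked 34 from the lowest of 48. The complex and later steps were thus lowest and the kinase highest in 1 liver. In the same liver the 5 macrophage markers averaged 10.14 (others 5.03 to 8.07), the 5 endothelial markers 7.82 (others 5.66 to 7.61) and the 6 hepatocyte markers 11.47 (others 11.99 to 12.52). The part of these markers in its values was not tested. Without this mouse the same 7 genes were called, with slopes of 0.12 for Dbt, 0.16 for Acadsb and 0.04 for Bckdk.

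Further genes of the pathway rose as well. Of 16 further branched-chain genes listed, 15 were measured and 9 rose with protein: Dld, Echs1, Hibadh, Hsd17b10, Auh, Pcca, Pccb, Mcee and Mmut. None fell. Their median slope over all 15 was 0.09. The steepest was Hsd17b10, which encodes a dehydrogenase of isoleucine breakdown (0.15 ± 0.03, SE, limma adjusted p = 0.00566). Hibadh, of valine breakdown, rose by 0.12 ± 0.03 (SE, limma adjusted p = 0.0141), and Dld, the lipoamide dehydrogenase that this complex shares with others, by 0.09 ± 0.02 (SE, limma adjusted p = 0.0159). Pcca and Pccb, which encode propionyl-CoA carboxylase, had slopes of 0.11 and 0.10, and Mmut, the mutase that makes succinyl-CoA, 0.09. The 6 genes not called were Bcat1, Acad8, Aldh6a1, the phosphatase gene Ppm1k (0.07 ± 0.04, SE), the mitochondrial carrier gene Slc25a44 (-0.09 ± 0.06, SE) and the thiolase gene Acat1 (-0.04 ± 0.03, SE). With the interquartile range as a term none of the 15 was called (limma, 6 at an unadjusted p under 0.05), against 0.449% of all genes upward. Without mouse 440 there were 4 calls, and 5 without mouse 135 (high energy 5/48/48) or mouse 194 (high energy 60/20/20). The share of all genes called in those fits was not recorded, so a fall over all genes is not set apart.

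The related dehydrogenase complexes gave no call. Of 6 subunit genes of the pyruvate and 2-oxoglutarate dehydrogenases none was called (limma, 2 at an unadjusted p under 0.05, against 26.6% of all genes tested). Their slopes lay between -0.06 for Dlat and 0.06 for Pdhx, with a median of -0.02. Of the 4 kinases of pyruvate dehydrogenase, relatives of Bckdk, only Pdk4 was called. Pdk4 averaged 8.06 ± 0.49 at 5% protein, 6.54 ± 1.31 at 14% and 6.02 ± 1.18 at 60% (SD), and its slope was -0.32 ± 0.10 (SE, limma adjusted p = 0.0434). With the interquartile range added to the model Pdk4 had a slope of -0.12 ± 0.09 (SE) and was not called (limma adjusted p = 0.681). The regulator genes Klf15, Mlxipl and Ppara were not called (limma, 0 of 3 at an unadjusted p under 0.05), with slopes of 0.07, -0.07 and -0.06.

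**Figure D3:**
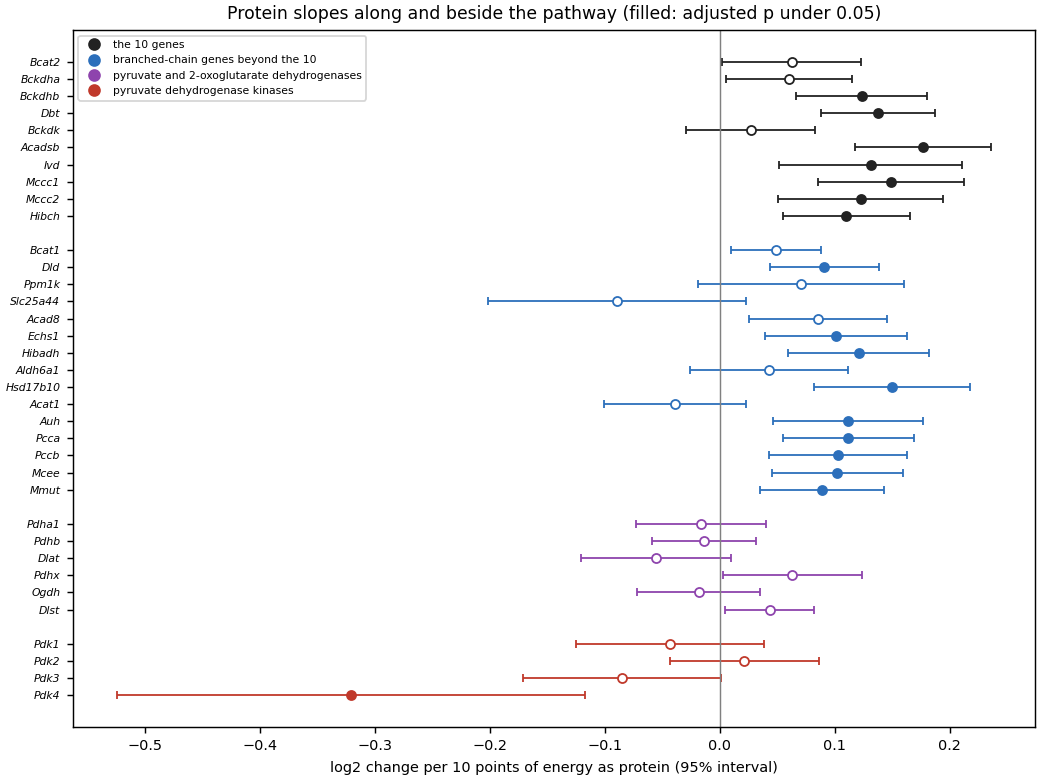
Protein slopes (log2 change for 10 points of energy as protein, with 95% intervals, 48 mice) of the 10 genes, of 15 further branched-chain genes, of 6 subunits of the related dehydrogenases and of 4 pyruvate dehydrogenase kinases. Filled points passed the threshold of 0.05 on the adjusted p: 7, 9, 0 and 1 genes, and only Pdk4 lies left of 0 among them.

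To compare the dehydrogenase with its kinase, the level of Bckdk was subtracted on each array and the slope refitted for all genes. All 9 slopes relative to Bckdk were positive, with a median of 0.10, against -0.03 over all genes tested. The median was 0.06 without the medium energy 14/29/57 mouse and 0.04 in the high energy diets alone, and in both of these fits 8 of the 9 slopes were positive, all but that of Bckdha. Acadsb alone was called (0.15 ± 0.04, SE, limma adjusted p = 0.0378), 1 of 9 against a background of 0.343% upward. For the complex, Dbt minus Bckdk had a slope of 0.11 ± 0.04 (SE, limma adjusted p = 0.123), Bckdhb minus Bckdk 0.10 ± 0.04 (SE, limma adjusted p = 0.171) and Bckdha minus Bckdk 0.03 ± 0.04 (SE, limma adjusted p = 0.748). So a difference in slope between a complex subunit and the kinase was not called for any of the 3 subunits, although Dbt and Bckdhb were called alone and Bckdk was not. Bckdha minus Bckdk turned to -0.0019 without the medium energy 14/29/57 mouse and to -0.02 with the interquartile range as a term. The Acadsb call was lost in 11 of 48 fits that left out 1 mouse (mice 128, 129, 130, 135, 199, 426 and 435 on 5% protein, 213 on 23%, 440 on 42%, and 141 and 194 on 60%), with adjusted p between 0.0503 and 0.0811. In the high energy diets alone Dbt minus Bckdk had a slope of 0.06 ± 0.04 (SE, limma adjusted p = 0.21) and none of the 9 was called.

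The later steps were set against the complex in the same way, through Bckdha. Acadsb minus Bckdha had a slope of 0.12 ± 0.03 (SE, limma adjusted p = 0.00821), Mccc1 minus Bckdha 0.09 ± 0.02 (SE, limma adjusted p = 0.0247) and Dbt minus Bckdha 0.08 ± 0.02 (SE, limma adjusted p = 0.0377). These were 3 of 9 genes, against a background of 0.597% upward. Ivd, Mccc2 and Hibch, with slopes of 0.07, 0.06 and 0.05 relative to Bckdha, did not pass. Without mouse 125 Bckdhb passed too (limma adjusted p = 0.0487), and Dbt was lost without mouse 126, 128, 129, 135, 192, 199, 435 or 440, with adjusted p between 0.0508 and 0.0664. Dbt belongs to the complex itself, so the called genes did not divide by step. With the interquartile range as a term each of these 3 slopes was 0.10 and none was called.

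The promoters of Bckdha, Bckdhb and Bckdk are shown because the slopes of these complex and kinase genes were set against each other above. No difference in slope among these 3 genes was called. RefSeq sequences of GRCm38.p6 run from 250 bases before to 50 after the annotated start, 5′ to 3′ in the direction of the gene. Entries matched 9 of the 10 genes, all but Dbt. Capitals mark CACCC, a motif bound by KLF factors, and AGGTCA, a nuclear receptor motif, on either strand.
Bckdha, chr7:25658712-25659011, minus strand: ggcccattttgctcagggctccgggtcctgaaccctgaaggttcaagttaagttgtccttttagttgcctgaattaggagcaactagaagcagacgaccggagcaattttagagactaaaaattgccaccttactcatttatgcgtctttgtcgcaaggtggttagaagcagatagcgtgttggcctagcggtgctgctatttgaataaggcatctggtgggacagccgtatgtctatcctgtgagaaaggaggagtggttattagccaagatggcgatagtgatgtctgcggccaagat
Bckdhb, chr9:83924887-83925186, plus strand: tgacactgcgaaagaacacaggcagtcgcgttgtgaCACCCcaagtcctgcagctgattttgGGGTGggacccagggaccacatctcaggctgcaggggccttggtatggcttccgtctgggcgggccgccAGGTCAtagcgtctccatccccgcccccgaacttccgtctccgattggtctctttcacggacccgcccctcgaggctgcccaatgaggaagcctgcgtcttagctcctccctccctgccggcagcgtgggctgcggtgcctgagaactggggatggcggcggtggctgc
Bckdk, chr7:127903823-127904122, plus strand: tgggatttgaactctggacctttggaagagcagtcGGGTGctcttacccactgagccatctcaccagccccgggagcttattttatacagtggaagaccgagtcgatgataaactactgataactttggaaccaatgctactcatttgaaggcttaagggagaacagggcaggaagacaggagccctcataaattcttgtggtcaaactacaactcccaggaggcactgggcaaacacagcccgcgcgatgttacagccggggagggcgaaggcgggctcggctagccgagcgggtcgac
CACCC was found in the Bckdk promoter 1 time, in the Bckdhb promoter shown 2 times and in the Bckdha promoter 0 times, and 57.5% of all 32851 promoters in the table hold it. Among the 9 genes with an entry, AGGTCA was found only in the Bckdhb promoter shown (16.3% of all promoters hold it). The E-box CACGTG was found among them only in the Mccc2 promoter (7.15% of all). A 2nd annotated start of Bckdhb, at chr9:83948531-83948830, held none of the 3. The Bckdha promoter is 48% G and C, the Bckdhb promoter 65% and the Bckdk promoter 54%, against a median of 52.7% over the table.

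Group means differed more among the low protein shares than among the high ones for several genes, but no curve was called. Acadsb averaged 7.39 at 5% protein, 7.66 at 14%, 7.96 at 23%, 8.10 at 33%, 8.10 at 42% and 8.10 at 60%, and Mccc2 averaged 7.06, 7.25, 7.57, 7.67, 7.51 and 7.65 at the same shares. A quadratic term in the protein share (log2 for the square of 10 points) was negative for all 10 genes, with a median of -0.03, against 0.0002 over all genes tested. None was called by limma (lowest adjusted p 0.0685 for Acadsb), and the background of calls was 0.0473%, 8 genes of 16926. At an unadjusted p under 0.05 there were 6 of the 10, against 22.5% of all genes tested (3801 of 16926). In the high energy diets alone 4 of the 10 were called, against 8.57% of all genes in that fit. In all diets Acadsb was called without mouse 131 (high energy 33/47/20), 211 (low energy 42/29/29) or 409 (high energy 23/38/38), with limma adjusted p of 0.0376, 0.0434 and 0.0416, and Mccc2 without mouse 131 (0.047).

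The exchange of carbohydrate against fat at constant protein gave no call. The exchange slope, for 10 points moved from fat to carbohydrate, lay between -0.01 for Mccc2 and 0.04 for Mccc1, and its 95% interval for Dbt was -0.05 to 0.06. Without the medium energy 14/29/57 mouse the slope of Mccc1 was 0.0086, and the median of the 10 was -0.01, against 0.0067 with it. By limma none of the 10 genes and 0% of all genes were called (0 of the 10 and 665 of 16926 at an unadjusted p under 0.05). Between diets matched in protein and energy, Bckdk was higher on the diet with more carbohydrate in 1 of 5 pairs, with differences from -0.17 to 0.08. In 1 of these pairs, 23/65/12 against 23/38/38, the diet with less carbohydrate held equal carbohydrate and fat. Among the extremes, Acadsb was 6.96, 7.48, 7.50 and 7.84 on 5/75/20, against 7.26 and 7.57 on 5/20/75, so the fat-rich pair lay inside the range of the carbohydrate-rich mice. Dbt was 8.31, 8.61, 8.64 and 8.94 on 5/75/20, against 8.63 and 8.95 on 5/20/75. Mccc1, with the largest exchange slope over all 48 mice, was 6.99, 7.02, 7.33 and 7.38 on 5/75/20, against 6.97 and 7.18 on 5/20/75.

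**Figure D4:**
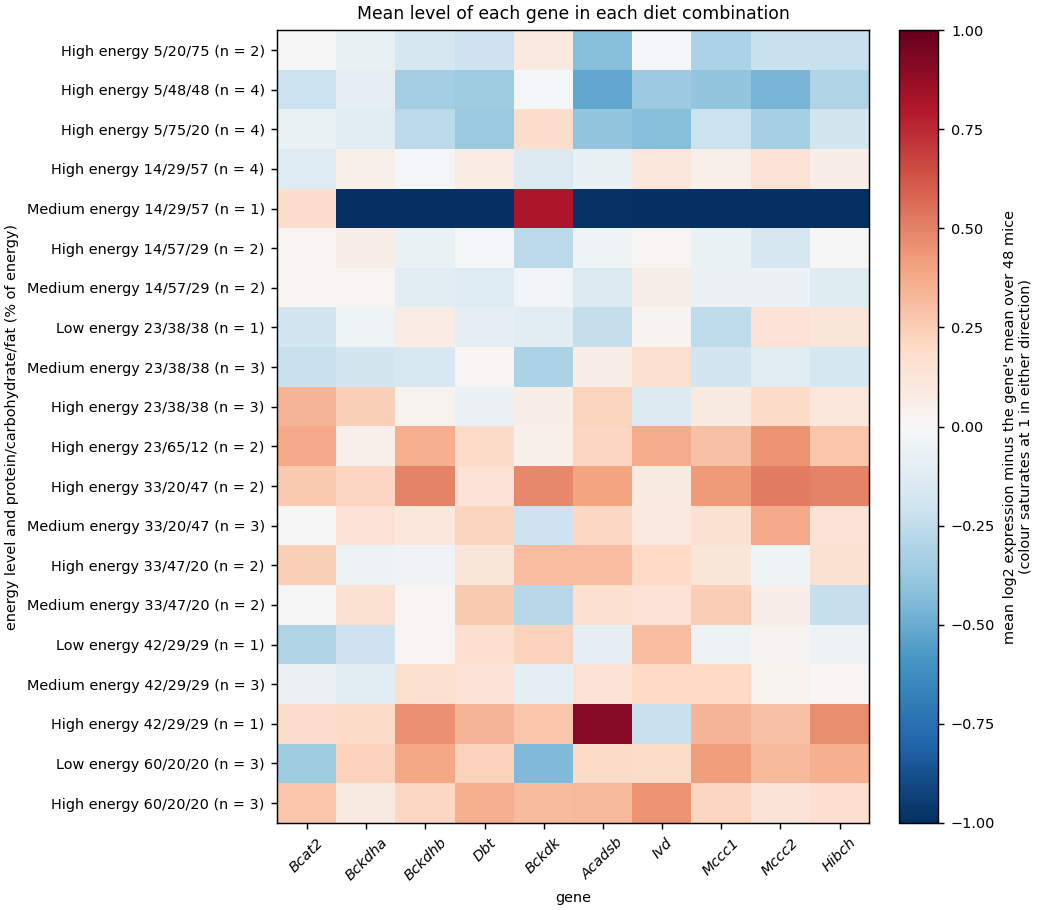
Mean log2 level of each gene in each of the 20 combinations of energy density and composition, minus that gene's mean over 48 mice. Rows are ordered by protein share and give the number of mice. The 3 rows at 5% protein are blue for Acadsb, Dbt, Mccc1, Mccc2 and Hibch, and Bckdk is lowest in the low energy 60/20/20 row and highest in the medium energy 14/29/57 row.

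Between low and high energy, Bckdk differed more than any other of the 10 genes, though no difference passed adjustment over all genes. Low and high energy were fed with the same composition at 60/20/20 to 3 mice each. Bckdk was 6.08, 6.30 and 6.64 on low energy, against 7.07, 7.07 and 7.16 on high energy, so every low energy mouse lay below every high energy mouse. The difference was -0.76 ± 0.17 (SE, 0.59-fold, limma adjusted p = 0.153). The exact permutation test gave p = 0.1, the smallest that 3 mice against 3 allow. Bcat2 was 4.32, 4.75 and 5.51 on low energy, against 4.87, 5.70 and 5.91 on high energy, overlapping groups that differed by -0.63 ± 0.27 (SE, limma adjusted p = 0.453). The subunit genes overlapped between the groups. Bckdha was 8.62, 8.87 and 8.99 on low energy, against 8.44, 8.68 and 8.93 on high energy, and Dbt was 9.08, 9.21 and 9.41, against 9.21, 9.37 and 9.50 on high energy. For Bckdha the difference was 0.14 (95% interval -0.22 to 0.50) and for Dbt -0.13 (95% interval -0.45 to 0.19). By limma 0% of all genes were called here (1710 of 16926 and 2 of the 10 at an unadjusted p under 0.05). The arrays of the low energy mice had an interquartile range of 3.03 ± 0.16, against 3.28 ± 0.16 for the high energy mice (SD, n = 3 each). The mean of the stellate cell markers lay between 4.94 and 5.36 in the low energy livers, against 5.36 to 5.82 in the high energy livers. The part of these markers in the Bckdk difference was not tested. In 14 alternatives, with the interquartile range as a term among them, the Bckdk difference lay between -0.82 and -0.67 and was not called. In both other low energy mice Bckdk also lay below the high energy mice of their composition, by less. It was 6.68 in the 1 low energy mouse on 23/38/38, against 6.74, 6.89 and 6.92 on high energy. On 42/29/29 it was 7.01 in the 1 low energy mouse, against 7.06 in 1 high energy mouse. These low energy mice did not lie below medium energy as a group. Medium energy mice had 6.31, 6.34 and 6.75 on 23/38/38, and 6.48, 6.67 and 6.92 on 42/29/29.

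High and medium energy diets were compared in the model of diet. All 10 differences were positive, with a median of 0.17, against 0.0065 over all genes tested, and none was called: the background was 0% (limma, 2 of the 10 and 1376 of 16926 at an unadjusted p under 0.05). Hibch differed by 0.28 ± 0.10 (SE, limma adjusted p = 0.487) and Bckdk by 0.24 ± 0.10 (SE, limma adjusted p = 0.545). The medium energy 14/29/57 mouse moved these values in opposite directions. Without it the median of the 10 differences was 0.06 and 8 of the 10 were positive. Bckdk then differed by 0.32 ± 0.09 (SE, limma adjusted p = 0.602) and Hibch by 0.18 ± 0.08 (SE, limma adjusted p = 0.912), while Bckdha was at 0.08, Dbt at -0.03 and Ivd at -0.07, and limma again called 0% of all genes. Composition by composition, Bckdk was 7.15 and 7.37 on high energy 33/20/47, against 6.46, 6.56 and 6.71 on medium energy. It was 6.93 and 7.25 on high energy 33/47/20, against 6.28 and 6.72 on medium energy, and neither pair of groups overlapped. On 23/38/38 it was 6.74, 6.89 and 6.92 on high energy, against 6.31, 6.34 and 6.75 on medium energy, and on 42/29/29 it was 7.06 in 1 high energy mouse, against 6.48, 6.67 and 6.92 on medium energy. The order was turned at 14% protein, where Bckdk was 6.39 and 6.63 on high energy 14/57/29, against 6.69 and 6.83 on medium energy. On 14/29/57 it was 6.41, 6.60, 6.71 and 6.83 on high energy, against 7.59 in the 1 medium energy mouse. Acadsb and Hibch were each higher on high energy in 6 of 6 compositions by their means, by 0.10 to 0.92 and 0.11 to 1.48, with the largest gap of each at 14/29/57.

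**Figure D5:**
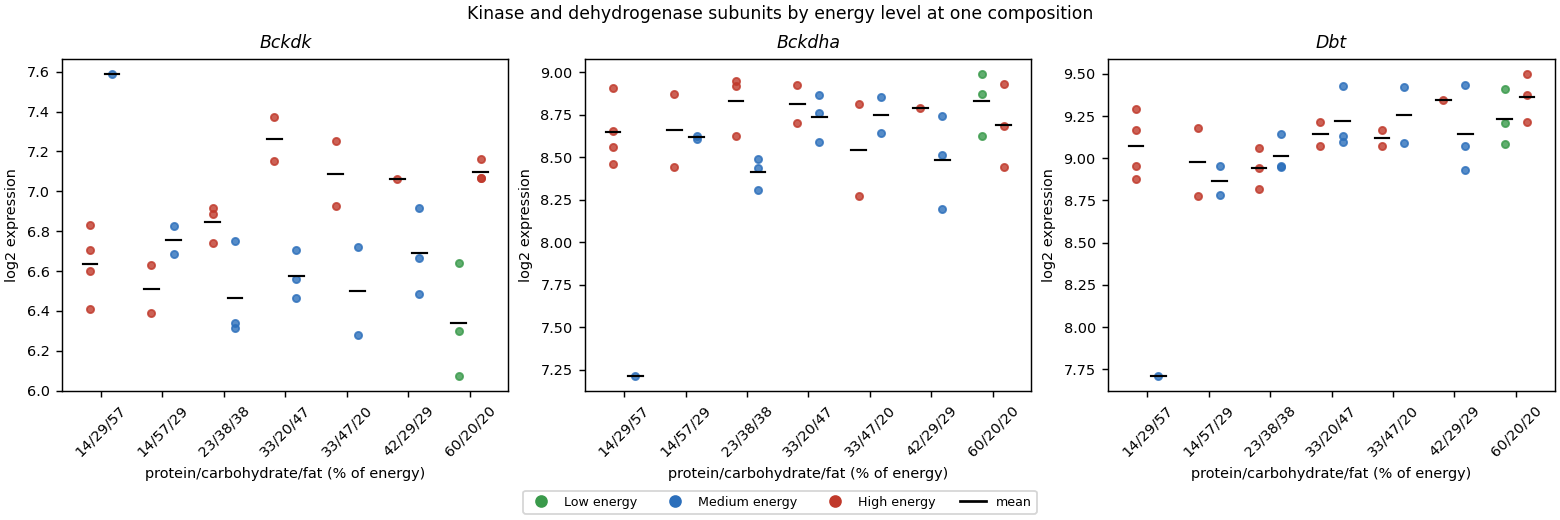
Log2 expression of Bckdk, Bckdha and Dbt in mice given the same protein/carbohydrate/fat composition at different energy density. Points are mice and bars are means, with high energy left of medium energy and, at 60/20/20, low energy left of high energy. Bckdk values of the groups overlap only at 23/38/38, while the low and high energy groups of Bckdha and Dbt overlap at 60/20/20.

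Among themselves the genes fell into a correlated set and 2 others. For the 8 genes other than Bcat2 and Bckdk, the 28 pairwise Pearson correlations over 48 mice lay between 0.49 and 0.89 with a median of 0.74, and between 0.07 and 0.82 with a median of 0.64 without the medium energy 14/29/57 mouse. These mice share diets and arrays, so the values are a description. Bckdk followed Bcat2 (Pearson r = 0.50, permutation p = 0.00035, adjusted over 9 relations 0.00315, Spearman rho = 0.45, permutation p = 0.00128, adjusted 0.0115). That r was 0.48 without the 2 mice farthest from the median of Bckdk, and 0.52 in 34 mice numbered under 300 and 0.50 in 14 numbered over 300. The permutations moved mice freely between diets, so their p-values do not set shared diet apart from a relation within diets. None of the other 8 relations of Bckdk passed adjustment. The lowest was Ivd (r = -0.30, permutation p = 0.0388, adjusted 0.175, rho = -0.08, permutation p = 0.6), which went to -0.06 without the medium energy 14/29/57 mouse.

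Over all genes tested, the 5 whose levels were most like Dbt across the 48 arrays were Ftcd, Agxt, Mdh1, Hal and Abat (Pearson r from 0.84 to 0.87, and from 0.74 to 0.80 without the medium energy 14/29/57 mouse). All 5 rose with protein, with slopes between 0.10 for Mdh1 and 0.28 for Agxt. Those most like Bckdk were Stx6, Abi1, Plbd1, Fcgrt and Gmeb2 (r from 0.63 to 0.70, and from 0.60 to 0.64 without that mouse), with protein slopes between -0.06 and 0.04, none called. Those most like Bcat2 were Vps72, 2310011J03Rik, Hars2, Tcta and Ing4 (r from 0.61 to 0.68), none of them called for protein. All these genes were chosen by likeness over the same 48 arrays. Their protein slopes are thus not independent of those of Dbt, Bckdk and Bcat2, and are given as a description.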

How the data were processed

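The authors deposited 1 value per probe set and array for 41345 probe sets and 48 mouse livers. Per the labels' protocols, biotin-labelled RNA was hybridized to Affymetrix arrays. The deposited values, between -0.51 and 13.42, were taken as log2 expression because of that span. What background correction, normalization and software the authors used is not given in the sources used here. Scanner files were not used. Genes were named from the platform annotation, in which 23521 probe sets carried 1 symbol and 1814 several, which were left out. Genes whose mean exceeded 1.17, the 30th percentile of probe set means, were tested in R 4.3.3 by limma 3.58.1 (linear models, moderated with a mean-variance trend), two-sided, with Benjamini-Hochberg adjustment over all genes and a threshold of 0.05. The model held protein share, carbohydrate-fat exchange and energy density. The 60/20/20 contrast came from a model of 20 combination means. Relative slopes subtracted Bckdk or Bckdha per array. Correlations used 100000 permutations (Python 3.11.15). Each mouse came from its own cage, and the number of arrays limits precision.

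The members and gene lists were chosen with earlier results of these data known. Named genes were the 10 genes, all genes of 4 pathway lists, and the 5 genes most correlated with Dbt, Bckdk and Bcat2. Mean levels were also taken for 9 marker lists; cholangiocyte, skeletal muscle, adipocyte and pancreas markers averaged 2.92, 1.51, 0.95 and 2.07 at 5% protein and 2.93, 1.66, 1.08 and 2.24 at 60%, and lymphocyte markers 2.84 at 5% and 2.50 at 60%. The fits were tested on simulated data. Alternatives changed the normalization, filter, probe set rule, array weights, model terms, exchange for protein or set of mice.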

Additional observations from a re-analysis of the deposited data

Results flagged for a closer look

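Groups of 4 to 10 mice (combinations, protein shares and the low energy diets) were searched gene by gene for a mouse far from the others, by the ratio of its gap to the range of the group. Chance flags about 1 in 20 such groups. Of 100 tests 8 passed, and all 8 were the medium energy 14/29/57 mouse within the 9 mice on 14% protein and so are not independent of each other. It was lowest for Bckdha (7.21, next 8.44), Bckdhb (7.02, next 7.97), Dbt (7.71, next 8.78), Ivd (5.65, next 7.30), Mccc1 (5.66, next 7.04), Mccc2 (5.69, next 7.11) and Hibch (5.57, next 6.77), and highest for Bckdk (7.59, next 6.83). The part of its high macrophage markers in these values was not tested.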

How the results depend on the processing

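Counts of genes called are given out of the 10 (or 9 for relative slopes); the cause of each change was not tested. Of 7 genes with a protein slope called, 2 were called with the interquartile range as a term (0.449% of all genes upward). The count was also 2 with that range and the Y-linked minus Xist value (0.544%). With that range and without the medium energy 14/29/57 mouse, an alternative chosen after seeing the data, the count was 4 (0.727%). With protein for carbohydrate alone it was also 4 (0.827%). Of 15 further branched-chain genes 9 were called, and 0 under each of those 3 settings with the interquartile range. There were 5 with array medians centred (5.86% of all genes called in either direction) and 4 in the high energy diets alone (4.71%). There were 2 with protein for carbohydrate (1.55%) and 3 with protein for fat (4.25%). Leaving out each mouse gave 4 to 11. Shares over all genes were not recorded for fits that left out 1 mouse. Relative to Bckdk the count of 1 (0.343%) became 0 with quantile normalization, the 3 settings with the interquartile range and a random block for combination. It was also 0 in diets of high energy alone and with protein for either carbohydrate or fat. Upward shares in these fits lay between 0.0295% and 0.39%. The count was 4 with array weights (2.06%) and 3 with log2 protein (1.19%), and leaving out each mouse gave 0 to 1. Bckdha minus Bckdk reversed to -0.0019 without the medium energy 14/29/57 mouse, -0.016 with the interquartile range (also with the Y-linked minus Xist value), -0.038 with the interquartile range and without that mouse, and -0.031 in the high energy diets alone; leaving out each mouse gave -0.0019 to 0.060. Relative to Bckdha the count of 3 (0.597%) became 0 with the interquartile range (0.171%) and with the random block (0.142%). It was 1 with both that range and the Y-linked minus Xist term (0.242%), in the high energy diets alone (0.467%) and with protein for carbohydrate (0.13%). With array weights it was 5 (2.52%). The quadratic term, with 0 called, gave 1 with the Y-linked minus Xist value (4.55% of all genes called), 2 with array weights (2.39%) and 4 in the high energy diets alone (8.57%), and leaving out each mouse gave 0 to 2. For high against medium energy, means of matched compositions called 6 genes (11.2% of all genes), and 0 without the composition that held the medium energy 14/29/57 mouse. Counts for the exchange and for low against high energy stayed at 0 in every alternative run. No paired analysis was possible because mouse numbers are unique. Of the genes named, Dbt and Acadsb kept their protein slope calls in all 17 alternatives and in all fits without 1 mouse. The random block could not be fitted to the 60/20/20 contrast, where the block is the group. The number of arrays, down to 1 for some combinations, limits what could be called.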
